A study of Drosophila melanogaster with 2 samples.

Results

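The Notch receptor, its ligands and the core of the pathway were followed as a set of 9 genes out of 13968 protein-coding genes. They are N (the receptor), Dl and Ser (the transmembrane ligands), neur, fng, kuz, Su(H), H and mam. The genes were taken by symbol, and the rule that lists them uses no signal, rank or other measured value, although the set was proposed with earlier results of these data known. A ChIP-seq peak was assigned to a gene when its summit lay in the gene body or within 5 kb of one of its transcription start sites (TSSs). The strongest peaks formed the authors' IDR list, in which the irreproducible discovery rate (IDR) measures how well peak ranks repeat between replicates. By this rule the 9 genes held 113 summits of the pooled peak list and 13 summits of the IDR list.

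The measured protein was B-H2, a Bar-class homeodomain transcription factor of Drosophila melanogaster. Intact embryos of 6 to 22 hours, males and females mixed, came from a single transgenic strain that stably makes B-H2 with GFP at its C terminus, and no other allele or agent is named. Biological replicates 1 and 3 form the only group, so there was no untreated or control group to compare. The antibody and assay fields describe a B-H2 immunoprecipitation, whereas the free text attached to both libraries calls them input controls and another experiment is given as a possible control; this conflict was not resolved. Sonicated chromatin measured 200 to 800 bp, and 1 control alignment was used for each replicate and for the pool. In a whole embryo, binding in few cells and weak binding in many cells cannot be told apart.

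Notch is a transmembrane receptor that is activated by ligands on neighbouring cells. Ligand pulling exposes the receptor to proteolytic cleavage, and its freed intracellular domain enters the nucleus, where it binds Su(H) and the coactivator Mastermind and switches target genes from repression to activation. In the fly embryo the pathway is known for lateral inhibition, by which single neural precursors are singled out from clusters of equivalent cells.

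The sequences below carry the main positional findings: the peaks of the receptor gene, the promoter peaks of neur, kuz and Su(H), and the weaker promoter peaks of the ligand gene Dl and of fng. Each is the dm6 reference sequence at a summit, on the strand of the gene, 5' to 3'. The windows were 101 bp long around the summit, and the kuz TSS window was shortened to 46 bases that end just before the TSS. The kuz summit, 4 bp downstream of the TSS, is thus not among its printed bases. Capitals mark matches, on either strand, to the sites searched. The homeodomain-type sites were TAATTG, the palindrome TAATTA, and a further site TAAACG. The Su(H)-type sites were CGTGGGAA, TGTGGGAA, CGTGAGAA and TGTGAGAA. The promoter factor sites were TATCGA for DREF and BEAF-32, GGTCAC for M1BP, and GAGAGA for GAGA factor.
N, 126 bp upstream of the TSS, chrX:3134694-3134794, plus strand: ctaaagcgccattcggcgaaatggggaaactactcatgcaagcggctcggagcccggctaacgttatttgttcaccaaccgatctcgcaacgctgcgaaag
N, intron, 22631 bp downstream of the TSS, chrX:3157451-3157551, plus strand: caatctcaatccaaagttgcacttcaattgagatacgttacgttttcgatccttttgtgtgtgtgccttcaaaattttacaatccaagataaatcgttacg
N, intron, 27625 bp downstream of the TSS, chrX:3162445-3162545, plus strand: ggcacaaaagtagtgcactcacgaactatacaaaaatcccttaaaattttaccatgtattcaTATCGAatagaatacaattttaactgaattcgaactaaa
neur, 191 bp upstream of the inner TSS, chr3R:9033872-9033972, minus strand: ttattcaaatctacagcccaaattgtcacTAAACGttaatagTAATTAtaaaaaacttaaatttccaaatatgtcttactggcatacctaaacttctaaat
kuz, at the TSS, chr2L:13550093-13550138, plus strand: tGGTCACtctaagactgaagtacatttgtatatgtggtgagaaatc
Su(H), 53 bp upstream of the TSS, chr2L:15039385-15039485, plus strand: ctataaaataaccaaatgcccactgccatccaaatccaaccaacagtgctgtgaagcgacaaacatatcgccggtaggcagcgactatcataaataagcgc
Dl, 59 bp upstream of the TSS, chr3R:19326226-19326326, minus strand: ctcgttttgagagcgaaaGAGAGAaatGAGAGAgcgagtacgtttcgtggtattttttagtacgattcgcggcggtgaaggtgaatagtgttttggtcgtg
fng, 68 bp upstream of the TSS, chr3L:20949530-20949630, minus strand: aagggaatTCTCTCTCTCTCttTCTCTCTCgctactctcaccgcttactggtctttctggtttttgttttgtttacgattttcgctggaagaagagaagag

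At least 1 site was present at 6 of the 13 IDR summits of the 9 genes, and no site recurred at more than 2 of them. The share of all IDR windows with at least 1 of these sites is not given, so the count of 6 has no baseline. The window of the neur inner promoter was the only one of the 13 with a pair of different sites, the TAATTA palindrome and the further homeodomain-type site TAAACG that precedes it. At 2 mam summits the site TAATTG was found, against 8.65% of all 4277 IDR windows and 8.73% of 24843 low-ranked pooled windows that overlap no IDR peak. The DREF and BEAF-32 site TATCGA was found at 2 summits, the N summit 27625 bp into the gene and the neur summit 618 bp downstream of its outer TSS. It occurred in 12.3% of all IDR windows and in 5.18% of low-ranked windows.

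GGTCAC was found at 1 summit, the kuz TSS, with shares of 4.63% and 2.75% over the same sets of windows. The shares for TAAACG were 5.49% and 4.61%, and those for TAATTA were 6.94% and 6.09%. None of the 13 windows held a Su(H)-type site, which 0.888% of IDR windows and 1.04% of low-ranked windows held. GAGAGA was also missing from the 13 windows, with shares of 4.28% and 5.05%, but it was repeated in the promoter windows of Dl and fng, which were outside the IDR list. The promoter window of Ser, also outside that list, held none of the sites searched. The median GC content of the 13 windows was 40.6%, near the median of 39.6% over all IDR windows. Single windows varied, with 54.5% at the N promoter, 45.5% at Su(H) and 25.7% at the neur inner promoter. These matches describe the letters near a summit only.

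The 9 genes divided into 5 with at least 1 IDR summit (N, neur, kuz, Su(H) and mam) and 4 with none (Dl, Ser, fng and H). Over all protein-coding genes 44.7% had an IDR summit by the same rule, and among the 1367 genes of 15 kb or longer the share was 53.3%. For the same 5 members an IDR summit lay 1 kb or less from a TSS, against 26.9% of all genes and 37.3% of the long genes. Long genes collect more summits under this rule, and the members were long: their median length was 23487 bp, against 2164.5 bp for all genes. The share of members with an IDR summit was thus near that of long genes. At least 1 pooled summit was found at 8 of the 9 members, against 77.0% of all genes, and H was the exception.

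**Figure D1:**
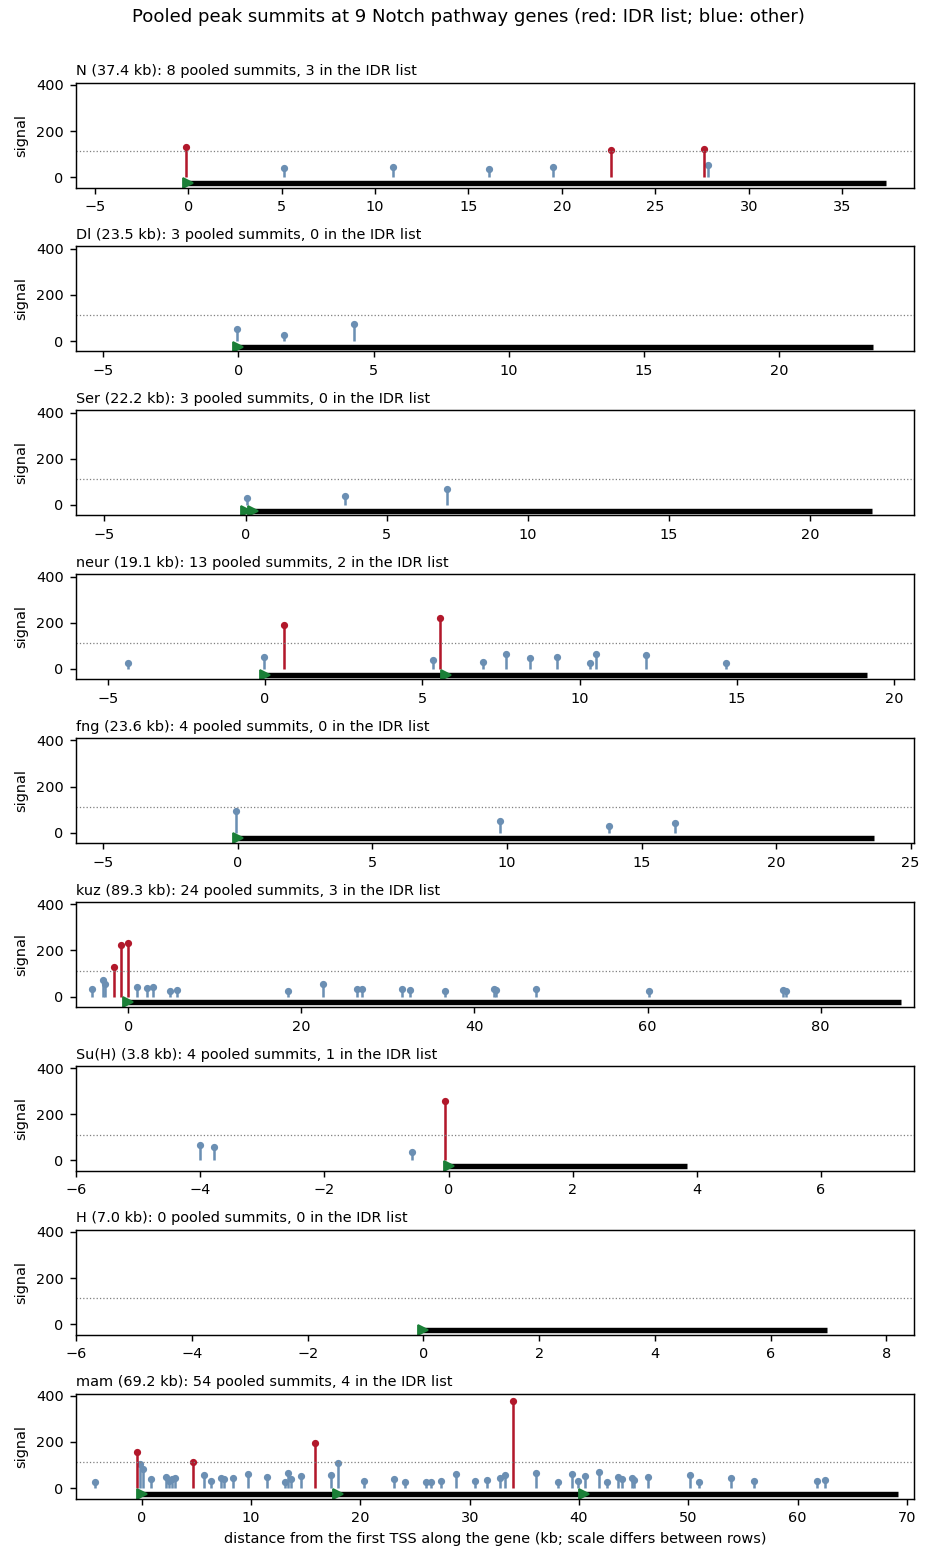
Authors' signal (y axis) of every pooled peak summit assigned to the 9 genes, against distance in kb from the first TSS along the gene (x axis, with a scale of its own in each row). Red summits are in the IDR list and blue summits are not. The dotted line is the lowest IDR signal, the black bar is the gene body and green arrowheads are TSSs. The IDR summits of kuz lie at the TSS and up to 1696 bp upstream of it. The single IDR summit of Su(H) lies near the TSS, whereas IDR summits of N and mam also lie deep in introns.

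Peak lists, not read counts, were analysed, so the read depth is unknown and the number of peaks, 30000 in each replicate list and in the pooled list, was the same by construction. Signal is the authors' value for a peak and is compared within a list only, and rank 1 is the highest signal of a list. The 4277 IDR peaks are the pooled peaks with signal of 112 or more, with a median of 168, and the median of the whole pooled list was 44.6. IDR summits at the 9 genes had signals from 115 to 378 with a median of 188. All pooled summits at these genes had a median of 42.5. The pooled list is labelled as peaks and background for input to IDR. Its entries outside the IDR list can therefore include background, and at the 9 genes their −log10 q-values went down to 0.247.

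The receptor gene N spans 37.4 kb (X, 3134870 to 3172221, plus strand) and held 8 pooled summits. Of these, 3 were in the IDR list, 1 at the promoter and 2 far inside introns. The promoter peak (X, 3134552 to 3134935) lay 126 bp upstream of the only TSS and had a pooled signal of 131 at rank 3303. Its signal was 51.7 at rank 4741 in replicate 1 and 71.0 at rank 3596 in replicate 3. N therefore had a promoter peak in both libraries, placed in the weaker part of the IDR list.

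The intronic N peak 27625 bp downstream of the TSS (X, 3162303 to 3162686) had a pooled signal of 122, with 62.7 at rank 3408 in replicate 1 and 63.8 at rank 4279 in replicate 3. The other, 22631 bp downstream (X, 3157309 to 3157692), had a pooled signal of 119, with 57.6 at rank 3968 and 62.6 at rank 4410 in the replicates. All 3 IDR peaks of N were thus close to one another in signal and close to the lowest IDR signal. Among the 4277 strongest peaks of replicate 3 alone N kept 1 summit, at the promoter, and among those of replicate 1 alone it kept 2, both intronic. For both intronic summits the nearest TSS belonged to CG18508, at 10645 and 15639 bp, so they are assigned to N by the gene body alone. The remaining 5 pooled summits of N were intronic with signals from 33.9 to 52.9, and the weakest of them was matched in replicate 1 only. The strongest of them overlapped the IDR peak at 27625 bp and had the same replicate 3 match as that peak.

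The ligand genes Dl and Ser had no IDR summit. Dl (3R, 19302731 to 19326217, minus strand) encodes Delta, the main ligand of embryonic lateral inhibition. Its strongest peak lay 4272 bp downstream of the TSS in an intron, with a pooled signal of 76.0 at rank 7611, 30.8 in replicate 1 and 41.6 in replicate 3. The Dl promoter peak, 59 bp upstream of the TSS, had a pooled signal of 53.9 at rank 11822, with 24.2 and 28.3 in the replicates. Both were present in each library but below the IDR list. The weakest summit, at 1670 bp, had a signal of 26.8 and was matched in replicate 1 only. The IDR summit nearest to the Dl TSS was 61.5 kb away, beside the TSS of CG3734.

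Ser (3R, 27172090 to 27194267, minus strand) encodes Serrate, the other ligand, known best from the wing margin. Its 3 pooled summits had signals of 70.9, 38.2 and 31.7, and each had a match in both replicates. The strongest, 6872 bp downstream of the nearest TSS in an intron, ranked 6103 in replicate 1 and 16439 in replicate 3. The promoter summit was the weakest of the 3, 49 bp from a TSS, at ranks 18855 and 24875. The replicates therefore placed the intronic Ser peak far apart, and neither placed the promoter peak high. The nearest IDR summit was 43.0 kb from a Ser TSS, beside CG6051.

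neur (3R, 9020348 to 9039471, minus strand) encodes Neuralized, a ubiquitin ligase that drives ligand endocytosis in the signal-sending cell. In contrast to the ligand genes it had 13 pooled summits, 2 of them in the IDR list. The stronger (3R, 9033730 to 9034113) lay 191 bp upstream of the inner of its 2 TSSs, with a pooled signal of 219 at rank 1267. In replicate 1 it had a signal of 152 at rank 539, and in replicate 3 it had 75.2 at rank 3228. The peak was present in both libraries, but it stood higher in the replicate 1 list.

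The other neur IDR peak (3R, 9038661 to 9039044) had a pooled signal of 188, with 91.2 at rank 1639 and 93.3 at rank 2190 in the replicates. It lay 618 bp inside neur and also 93 bp from the TSS of hyx, which encodes a subunit of the Paf1 elongation complex on the opposite strand. A summit 42 bp from the outer neur TSS itself had a pooled signal of 51.6. The strong peak at the outer end of neur was therefore nearer to hyx than to neur. Per 10 kb of its window, neur had 5.39 pooled summits, and 16.2% of genes of 15 kb or longer were denser.

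fng (3L, 20925891 to 20949512, minus strand) encodes Fringe, a glycosyltransferase that modifies Notch and sets which ligand it answers to. It had 4 pooled summits and none in the IDR list. Its promoter summit, 68 bp upstream of the TSS, had the highest signal of any summit at the 4 members without an IDR peak, 94.9 at pooled rank 5490. It ranked 8783 in replicate 1 and 6119 in replicate 3, and so was seen in both. The intronic summits had signals of 49.7, 41.1 and 30.2, of which the second was matched in replicate 1 only and the last in neither replicate.

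kuz (2L, 13550139 to 13639411, plus strand) encodes Kuzbanian, the ADAM metalloprotease that makes the first ligand-induced cut in Notch. At 89.3 kb it was the longest of the 9 genes, with 24 pooled summits, yet its 3 IDR summits all lay within 2 kb of its TSS. The summit 4 bp from the TSS (2L, 13549951 to 13550334) had a pooled signal of 230, with 111 at rank 1073 in replicate 1 and 129 at rank 1161 in replicate 3. The next, 859 bp upstream (2L, 13549088 to 13549471), had 225, with 128 at rank 803 and 110 at rank 1615. These peaks were close in signal and strong in both libraries.

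The kuz summit 1696 bp upstream (2L, 13548251 to 13548634) was weaker, with a pooled signal of 130 and replicate signals of 77.8 and 56.7. Both upstream summits lie inside B4, a gene on the opposite strand, at 48 and 672 bp from its TSS. Only the summit at the kuz TSS was nearest to kuz itself, and the B4 TSS was 815 bp from it. Beyond 1 kb of the TSS, 17 pooled summits lay along the kuz body, none in the IDR list, with a highest signal of 52.4. Over all 24 summits, 12 were matched in both replicates, 4 in replicate 1 only, 4 in replicate 3 only and 4 in neither.

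The nuclear factors differed most among themselves. Su(H) (2L, 15039488 to 15043334, plus strand) encodes the DNA-binding factor through which Notch acts. Its IDR peak (2L, 15039377 to 15039538) lay 53 bp upstream of the TSS with a pooled signal of 258 at rank 926, the highest promoter signal among the 9 genes. In replicate 3 it had a signal of 177 at rank 612, with summits 7 bp apart. In replicate 1 no peak overlapped it. This was 1 of 35 among the 4277 IDR peaks with a match in replicate 3 only, and 98.8% of IDR peaks had a match in both. The peak was 162 bp wide, against a median of 384 bp.

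Near Su(H), replicate 1 had instead a weaker peak 582 bp upstream of the TSS, with a pooled signal of 34.5, and replicate 3 had no match to it. That summit was 45 bp from the TSS of CIAPIN1, a factor of cytosolic iron-sulfur cluster assembly, and the IDR summit was 574 bp from the same TSS. The remaining Su(H) summits, with signals of 65.3 and 58.4, were closest to the TSS of yellow-c. A Su(H) promoter peak was thus high in 1 library and undetected in the other, and no depth is given by which to weigh its absence.

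H (3R, 20621938 to 20628915, plus strand) encodes Hairless, the adaptor that turns Su(H) into a repressor by recruiting corepressors. It had no pooled summit, as did 23.0% of all genes. The nearest pooled summit lay 12.8 kb from its TSS and had a signal of 109, beside the TSS of Pi3K92E, a catalytic subunit of phosphoinositide 3-kinase. The replicate 3 list did hold 1 peak 29 bp upstream of the H TSS (3R, 20621727 to 20622090), with a signal of 42.3 at rank 8139. It overlapped no peak of replicate 1 or of the pooled list. The H peak and the Su(H) peak 53 bp upstream of its TSS were both found in replicate 3 and not in replicate 1, and only that of Su(H) was in the IDR list.

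mam (2R, 13991203 to 14060356, plus strand) encodes Mastermind, the coactivator that joins Su(H) and the Notch intracellular domain. It had 54 pooled summits, and only 14 of all protein-coding genes had more. These counts take in entries that can be background, at mam down to a −log10 q-value of 0.254. Its 7.28 pooled summits per 10 kb exceeded the median of 2.25 for genes of 15 kb or longer, of which 6.00% were denser. Its 4 IDR summits were the most of any member in number, and 2.84% of all genes had at least as many. Per 10 kb it had 0.539 IDR summits, fewer than N (0.708), neur (0.829) or Su(H) (1.00), and 23.5% of genes of 15 kb or longer were denser. Beyond 1 kb of its TSSs, 45 pooled summits lay along the gene body with a median spacing of 1004 bp.

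The strongest peak of the whole set lay in a mam intron (2R, 14025026 to 14025289). It had a pooled signal of 378 at rank 410, with 188 at rank 326 in replicate 1 and 190 at rank 522 in replicate 3. It was 6472 bp upstream of the nearest mam TSS and 3429 bp from the TSS of CG18371. The next intronic member peak, also in mam, had 195, and both libraries placed it among their strongest.

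The mam IDR summit 2156 bp upstream of the middle TSS (2R, 14006851 to 14007234) had a pooled signal of 195, with 109 and 85.4 in the replicates. The mam IDR summit 4669 bp inside the gene (2R, 13995680 to 13996063) had 115, with 73.8 and 54.8. Both stood in introns with mam as the nearest gene. The only mam IDR summit within 1 kb of a mam TSS (2R, 13990739 to 13990886) had 158, with 70.6 and 100.1 in the replicates. It lay 448 bp upstream of mam and 48 bp from the TSS of RN-tre, a Rab GTPase-activating protein on the opposite strand.

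At the middle mam TSS itself a summit 8 bp away missed the IDR list narrowly. Its pooled signal was 111.1 at rank 4322, where the IDR list ends at 111.8. It ranked 7519 in replicate 1 and 3113 in replicate 3, so the libraries placed it apart. The first mam TSS had a summit 142 bp upstream with a signal of 105, in a peak that overlapped the edge of the IDR peak near RN-tre. It also had a summit at 104 bp with a signal of 84.7. The last mam TSS had a summit at 50 bp with a signal of 52.2. Each of the 3 mam promoters thus held a summit of its own outside the IDR list.

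**Figure D2:**
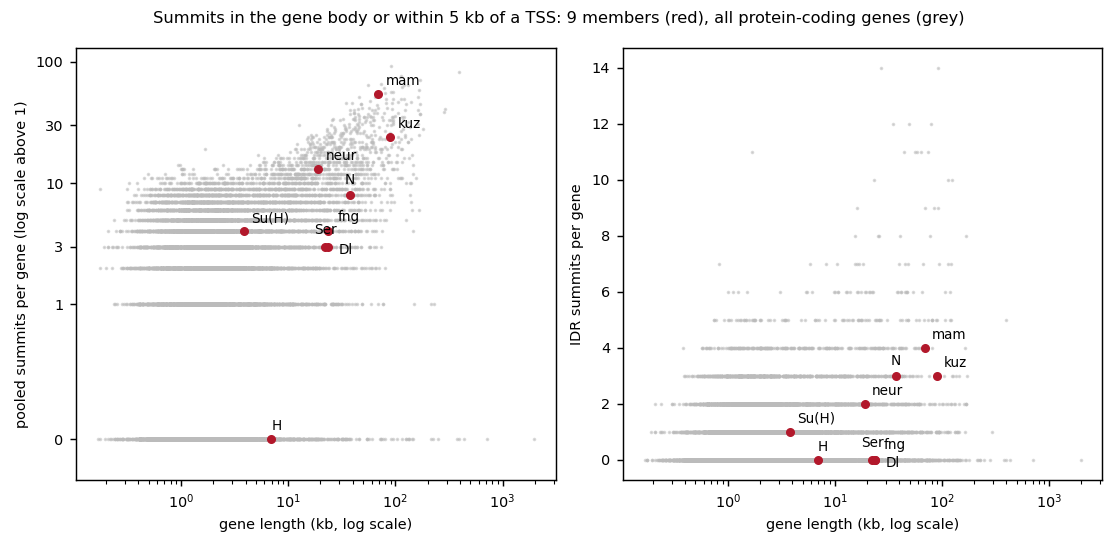
Number of pooled summits (left, log scale above 1) and of IDR summits (right) per gene against gene length in kb (log scale), with the 9 members in red and labelled and all protein-coding genes in grey. mam lies at the upper edge of the grey cloud for pooled summits with 54, whereas Dl and Ser have 3 each. Per 10 kb, 74.8% of genes of 15 kb or longer were denser than Dl and 73.9% were denser than Ser.

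Every member except H had a pooled summit, in or outside the IDR list, close to each of its TSSs. Of the 13 TSSs, 12 had a pooled summit within 250 bp, against 43.5% of 19630 TSSs of protein-coding genes counted per gene and 50.6% of 3132 TSSs of genes of 15 kb or longer. The TSS of H was the only one without. Within the same distance 4 of the 13 TSSs had an IDR summit (N, the inner neur TSS, kuz and Su(H)), against 18.0% of all TSSs and 14.8% of those of long genes. The nearest summit of the other 8 was outside the IDR list, at Dl, Ser, the outer neur TSS, fng and mam. The 250 bp distance was chosen after the values had been seen, and neighbouring TSSs can share a summit, as the pair of Ser TSSs did. Summits outside the IDR list can be background, and the −log10 q-value of that Ser summit was 0.464.

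Away from promoters the pooled peaks of the 9 genes were mostly intronic. Introns held 83 of the 113 summits (73.5%), against 38.5% of all pooled peaks, and 28 (24.8%) lay within 1 kb of a TSS of any protein-coding gene, against 41.2%. Of the 13 IDR summits 8 were at such promoters and 5 in introns, whereas 72.4% of all IDR peaks were at promoters and 18.4% in introns. The rule takes only summits in a gene body or within 5 kb of a TSS, and the members were long. The shares of all peaks are therefore not a like baseline, and no intron share for other long genes is given. mam alone gave 44 of the 83 intronic summits. Most of the other intronic summits came from kuz (16), neur (9) and N (7). Introns of any gene were counted, and 15 of those at kuz and 8 of those at neur lay inside the gene itself. Summits outside the IDR list can include background here too.

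The nearest TSS was the member's own for 6 of the 13 IDR summits and another gene's for 7. Of the 7, 4 lay within 1 kb of that other TSS, at hyx, at B4 (both upstream kuz peaks) and at RN-tre. A summit in such a shared interval cannot be given to either gene from position alone. The promoter peaks of N and Su(H), the kuz TSS peak and the inner neur peak stayed with the member when each summit was given to the nearest TSS, and mam kept 2.

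Member peaks were matched in both replicates about as often as all pooled peaks, but more of them were matched in neither. Of the 113 pooled summits, 74 (65.5%) overlapped a peak in both replicate lists by at least 1 bp, against 67.1% of all 30000. Overlapping pooled peaks were not merged, so some of them share a replicate match. A match in replicate 1 only was found for 13 (11.5%, against 13.3%) and in replicate 3 only for 17 (15.04%, against 15.8%). A match in neither was found for 9 (7.96%, against 3.78%), 4 of them at kuz. These 9 had signals from 24.6 to 36.1, where the lowest signal of the pooled list was 24.5. Of the 13 IDR peaks 12 had both matches, and Su(H) was the exception. mam gave 11 of the 17 matched in replicate 3 only. Counted from the replicate lists, 32 of 104 member peaks of replicate 1 had no match in replicate 3 (30.8%, against 32.0% of all), and 35 of 106 of replicate 3 had none in replicate 1 (33.0%, against 33.3%).

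**Figure D3:**
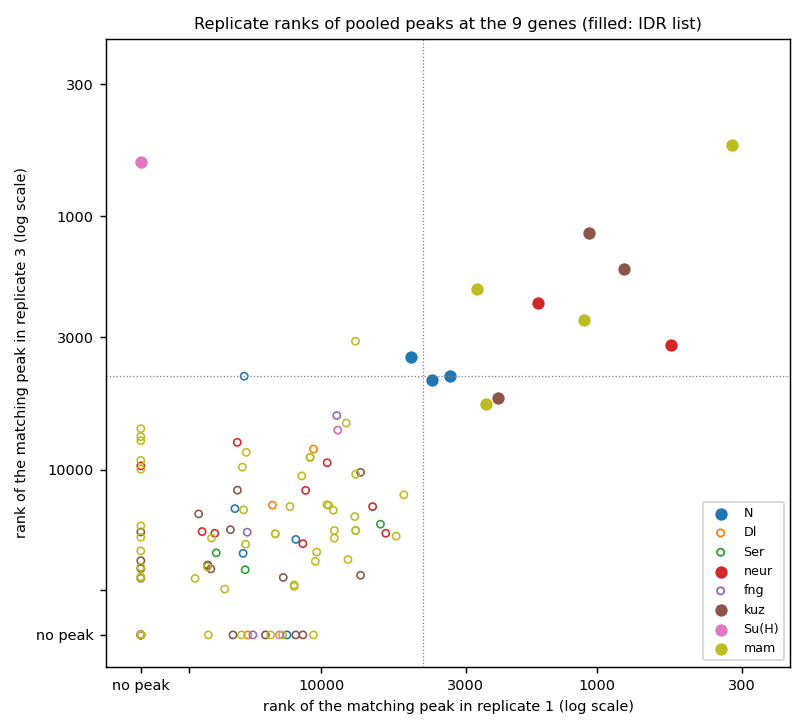
Rank of the matching peak in replicate 1 (x axis) and in replicate 3 (y axis), both on log scales with stronger peaks to the right and top, for the pooled summits of the 9 genes. Filled points are in the IDR list, points on the "no peak" margin lack a match in that replicate, and the dotted lines mark rank 4277; the filled Su(H) point at rank 612 in replicate 3 is alone on the replicate 1 margin.

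Around the core, 56 other genes of the pathway were counted by role. An IDR summit by the same rule was found at 37 of the 56, and 24 had one within 1 kb of a TSS. These shares, 66.1% and 42.9%, compare with 44.7% and 26.9% of all genes. The genes were not a random draw, and neighbouring genes share peaks, such as the summit with signal 320 counted for both gro and E(spl)m8-HLH. Receptor cleavage genes led the count with 10 of 11, followed by nuclear cofactors with 8 of 9, receptor trafficking and degradation with 6 of 8 and receptor glycosylation with 4 of 4. Ligand endocytosis had 2 of 4, the Bearded family 3 of 8 and the Notch targets 4 of 12.

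Among cleavage genes with a summit within 1 kb of a TSS, Fur1, a furin protease of the class that processes the receptor, had a pooled signal of 629. aph-1, a gamma-secretase subunit, had 405, nearest to the TSS of Snx21. Tsp86D, a tetraspanin that acts on Kuzbanian, had 291. In the glycosylation group Gmd, an enzyme of GDP-fucose synthesis, had 518 and rumi, the O-glucosyltransferase of Notch, had 280. All 5 signals exceeded every promoter signal of the 9 core genes, where Su(H) led with 258. These 5 were named because they were the strongest of their roles, so this order follows partly from the choice. The other cleavage genes with an IDR summit that near had signals from 116 to 157, below that of Su(H).

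Of the genes for ligand endocytosis, shi, the fly dynamin, had a promoter signal of 194, and mib1, a ubiquitin ligase that acts on the same ligands as neur, had 184. Among trafficking genes l(2)gd1, which acts on endosomal sorting of Notch, had 552 and numb, the inhibitor inherited by 1 daughter cell, had 387. The summit counted for dx, which encodes Deltex, a ubiquitin ligase that binds Notch, had 182 and was nearest to RpL7A. The mib1 and shi peaks were therefore of the same order as those of neur, and those of l(2)gd1 and numb were higher.

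Among nuclear cofactors nej, the fly CBP acetyltransferase, had a signal of 489, and gro, the Groucho corepressor, had 320. The summit within 1 kb of skd, a Mediator kinase module subunit, had 296 and was nearest to Pdss2. The corepressor gro thus had a promoter peak in both replicates, at ranks 784 and 476, while H, the adaptor that recruits it, had none in the pool. Of the targets only E(spl)m3-HLH, at 185, and wg, at 148, had an IDR summit that near. No pooled summit was found at 3 of the 12, dpn among them, which is near the share of 23.0% over all genes. The Bearded family, small inhibitors of Neuralized, had no IDR summit within 1 kb of a TSS in 8 genes.

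**Figure D4:**
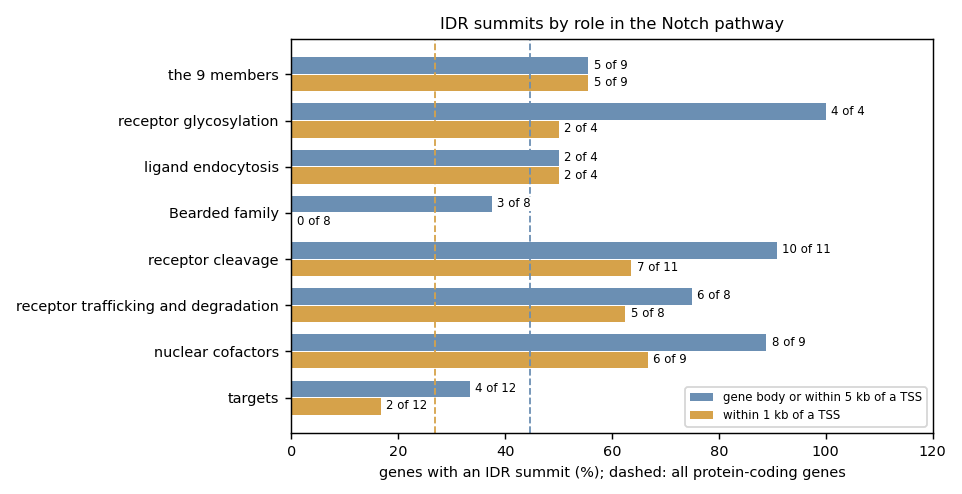
Percent of genes with an IDR summit for the 9 members and 7 role groups of the wider pathway, by the gene body or 5 kb rule (blue) and within 1 kb of a TSS (ochre), with counts beside the bars. Dashed lines give the shares of all protein-coding genes, 44.7% and 26.9%. The Bearded family and the targets lie below both lines, and the 9 members and all other role groups lie above both.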

How the data were processed

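The authors deposited 4 peak lists in dm6 coordinates, per the labels: 1 for each replicate, 1 for the pooled replicates and 1 IDR list. The label of the pooled list names both peaks and background. The aligner, the peak caller and the IDR threshold were not given in the sources used here. Every peak has a signal value and a −log10 q-value from the authors' caller; the deposited −log10 q-value is 4.09 at every IDR peak, so signal was used for ranks. Summits were taken from the offset given with each peak. All peaks of the 4 lists lay within the arms of the dm6 reference.

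Gene models were Ensembl release 115 (BDGP 6.54). All 65 gene symbols were matched, 3 of them through synonyms in RefSeq (Dl is listed as Delta, lgd as l(2)gd1 and kul as Kul). A TSS shared by several genes was counted for each. Replicate matches required an overlap of 1 bp. Both strands were read for sites within 50 bp of a summit. The named genes were the 9 members, up to 3 other genes per role with the strongest IDR summit no more than 1 kb from a TSS, and genes nearest to a named peak. E(spl)m8-HLH and dpn, and the genes nearest to the closest summits around members without a peak, were named after their values were seen. The members and gene lists were chosen with earlier results of these data known, and only counts and levels are described, without tests. Alternatives covered the window, the number of peaks, merging of overlapping IDR peaks, each replicate alone, the overlap rule and the site window. The assignment and matching steps were tested on simulated data. Python 3.11.15, numpy 2.4.6, pandas 2.3.3, scipy 1.17.1 and matplotlib 3.10.9 were used.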

Additional observations from a re-analysis of the deposited data

How the results depend on the processing

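The count of members with an IDR summit was 5 of 9 under each other window and after merging of overlapping IDR peaks. It was 4 with the 2138 strongest IDR peaks, where N had none, and 4 to 5 with a single replicate, where Su(H) had none without replicate 3. The 13 IDR summits at members became 7 within 1 kb of a TSS only, 6 by nearest TSS, 7 with the 2138 strongest peaks and 10 to 11 with a single replicate; N went from 3 to 1 without replicate 1. The 37 other pathway genes became 24, 21 and 24 under the first 3 of these, and 36 with either replicate alone. The share of all genes with an IDR summit fell alongside, to 26.9%, 22.0% and 30.3%. Of the 113 pooled member peaks, 74 were recovered in both replicates by 1 bp overlap but 41 when summits had to lie within 100 bp. Sites were present at 8 of 13 summits with 100 bp on each side, again with no share over all IDR windows beside it. No paired analysis was possible because the samples form a single group. Read depth is unknown, so a peak missing from a list may lie below its detection.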
